A study of Mus musculus with 3 samples.

Results

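The genes of the respiratory chain and ATP synthase were followed through 3 stages of female germ cell development in the mouse. The genes were picked out of the table by their symbols. A gene was taken when its symbol began with Nduf and a subunit letter and number, with Uqcr, with Cox followed by a subunit number 4 to 8, with Atp5 or with mt-, or when it was Sdha, Sdhb, Sdhc or Sdhd. Symbols ending in -ps were left out. This gave 95 of the 14133 genes in the table, 82 in the nuclear genome and 13 in mitochondrial DNA. The nuclear genes were 35 subunits of complex I, 4 of complex II, 8 of complex III, 18 of complex IV and 15 of ATP synthase (complex V), with Atp5s and Atp5sl, which are named after ATP synthase but are not subunits of it. Ndufa4 and its relative Ndufa4l2 were counted with complex IV. The mitochondrial genes were 7 of complex I, 1 of complex III, 3 of complex IV and 2 of ATP synthase. All 95 genes had at least 10 unique molecular identifiers (UMIs, each marking 1 captured RNA molecule), and 92 reached 10 counts per 1000000 UMIs (CPM) in at least 1 stage.

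The cells were primordial germ cells, from which oocytes later form. They came from fetal ovaries of C57BL/6 mice at embryonic day 12.5 (E12.5), day 14.5 (E14.5) or day 16.5 (E16.5). At all stages they carried the Oct4-EGFP reporter, in which a germ cell promoter drives a green fluorescent protein, and they had been sorted for its fluorescence. Each stage was 1 library of single cells with no replicate, so stage and library cannot be told apart, no test between stages was possible and no p-value is given. The labels do not say how many embryos were pooled. Over the 3 stages in time order, 4678, 8903 and 5312 cells were germ-cell-like by their markers, with 125161525, 102506950 and 68980723 UMIs and medians of 26710.5, 11002 and 12632 UMIs per cell. A marker was counted as present where 10% or more of the cells had it. Each of the 9 germ-cell-like clusters then showed 13 to 18 of 18 markers of germ cells and 0 to 2 of 14 of pregranulosa cells. A pregranulosa-like cluster of 25, 166 and 22 cells showed 16 and 14 and was kept apart. With markers of both kinds, its cells may hold germ cell RNA, which was not tested and limits every comparison with them below. Of the E12.5 cells, 634 formed a cluster in which Y-linked genes were detected in 91.3%, in a library whose label says female. Leaving it out moved none of the 47 calls made below on named genes across 2-fold. Libraries shared 58 (E14.5 and E12.5), 43 (E16.5 and E12.5) and 72 (E16.5 and E14.5) cell barcodes.

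Complexes I to IV pass electrons from nutrients to oxygen and pump protons across the inner mitochondrial membrane, and ATP synthase lets the protons flow back to make ATP. Complex II is encoded wholly in the nucleus, and the other complexes are mosaics of nuclear and mitochondrial products. Mitochondrial DNA is copied into long transcripts that are then cut into messages, whereas each nuclear gene has its own promoter. Some subunits of complex IV and the c subunit of ATP synthase are made from several nuclear genes, among them forms known from testis, muscle and heart.

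Promoters of 6 nuclear genes are shown, of 5 because they moved in opposite directions between stages, and of Atp5g2 because it makes the same product as 1 of these and did not move. RefSeq (GRCm38.p6) gave promoters for 68 of the 82 nuclear genes, 74 promoters in all since a gene can have several. The 120 bases before the start are given 5′ to 3′ on the gene's own strand, in lower case, with matches to the motifs below in capitals. Ndufa1 (chrX:37191239-37191358, minus strand) and Atp5f1 (chr3:105959264-105959383, minus strand) were higher at each later stage:
Ndufa1: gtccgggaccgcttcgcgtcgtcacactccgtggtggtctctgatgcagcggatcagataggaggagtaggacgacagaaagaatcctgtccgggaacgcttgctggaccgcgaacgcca
Atp5f1: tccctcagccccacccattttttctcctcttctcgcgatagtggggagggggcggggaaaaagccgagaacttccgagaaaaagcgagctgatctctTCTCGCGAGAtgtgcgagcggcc
Cox8a (chr19:7217617-7217736, minus strand), Cox7b (chrX:106015580-106015699, plus strand) and Atp5g1 (chr11:96075632-96075751, minus strand) were lower at each later stage:
Cox8a: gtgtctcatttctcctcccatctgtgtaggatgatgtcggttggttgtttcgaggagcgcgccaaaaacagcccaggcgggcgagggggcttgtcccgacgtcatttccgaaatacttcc
Cox7b: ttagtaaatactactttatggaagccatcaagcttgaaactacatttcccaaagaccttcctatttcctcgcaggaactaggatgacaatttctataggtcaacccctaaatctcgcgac
Atp5g1: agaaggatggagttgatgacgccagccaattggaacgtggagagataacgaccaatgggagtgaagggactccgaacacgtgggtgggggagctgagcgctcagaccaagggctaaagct
Atp5g2 (chr15:102671048-102671167, minus strand) encodes the same mature c subunit as Atp5g1 and stayed within 2-fold at all 3 stages:
Atp5g2: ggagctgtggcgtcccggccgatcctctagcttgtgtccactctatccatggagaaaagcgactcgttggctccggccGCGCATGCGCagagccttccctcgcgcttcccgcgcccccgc

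The 250 bases before each start were searched on both strands for 5 strings of letters, and no string contains another. The string of the factor NRF1, in capitals in the Atp5g2 promoter above, was found in 5.41% of 74 promoters of respiratory chain genes, against 0.782% of all 32851 promoters. The genes that held it were Atp5g2, Atp5k, Cox6a1 and Ndufa11. All 4 stayed within 2-fold in each comparison, as did 75.6 to 86.6% of all 82 nuclear genes in a single comparison. The ETS string CCGGAAG was found in 16.2% against 6.91%, the YY1 string AAGATGGC in 2.70% against 1.56%, and the string TCAAGGTCA of oestrogen-related receptors in 1.35% against 0.387%. The string in capitals in the Atp5f1 promoter above was added after the sequences had been seen. It stood in 3 promoters, which belong to the genes Atp5f1 and Ndufa7, or 4.05% of the 74 against 0.390% of all. The promoter of Atp5f1 shown above is counted in this share, which is thus partly built in. Atp5f1 has a further match upstream of the bases shown. These are matches of letters only, and binding was not measured.

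Together the 95 genes held 7.39% of all UMIs at E12.5, 7.60% at E14.5 and 8.04% at E16.5. The 82 nuclear genes held 4.54%, 5.27% and 4.95%, and the 13 mitochondrial genes 2.86%, 2.33% and 3.09%. There were 1.59 nuclear UMIs per mitochondrial UMI at E12.5, 2.26 at E14.5 and 1.60 at E16.5, a ratio that does not depend on how the libraries are scaled. The summed nuclear level was 1.16 times as high at E14.5 as at E12.5, but 0.926 and 0.964 times as high under median-of-ratios and TMM scaling, which set the libraries level on genes that differ little. The exact 95% binomial interval was 4.94 to 4.95% for the nuclear share at E16.5 and 4.53 to 4.54% at E12.5, and all intervals given here cover counting error only.

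Most of the 95 genes kept to a narrow range. In E14.5 over E12.5, 8 of the 95 genes were at least 2-fold higher, against 31.2% of all genes tested, and 4 were at least 2-fold lower, against 16.3%. In E16.5 over E14.5, 4 were higher (16.3% of all genes) and 10 lower (17.3%), and in E16.5 over E12.5, 10 were higher (37% of all genes) and 11 lower (22.7%). The 82 nuclear genes alone gave 1 higher (1.22%) and 10 lower (12.2%) in E16.5 over E14.5. Many genes of the whole table are weakly expressed. Among genes of at least 10 CPM, 6 of 92 rose and 4 fell in E14.5 over E12.5 (25% and 14.3% of all such genes), 3 rose and 8 fell in E16.5 over E14.5 (10.5% and 13.7%), and 9 rose and 10 fell in E16.5 over E12.5 (31.9% and 21.6%). A difference of at least 2-fold is what "rose", "fell" and "called" mean throughout. The median log2 ratio of the 82 nuclear genes was 0.28 in E14.5 over E12.5, -0.17 in E16.5 over E14.5 and 0.10 in E16.5 over E12.5. The medians of all genes tested were 0.30, 0.06 and 0.39. Median-of-ratios and TMM scaling put the medians of all genes between -0.027 and 0.052, and they turned the median of the nuclear genes to -0.27 and -0.23 in E16.5 over E12.5, while median-of-ratios scaling alone turned it to -0.051 in E14.5 over E12.5.

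**Figure D1:**
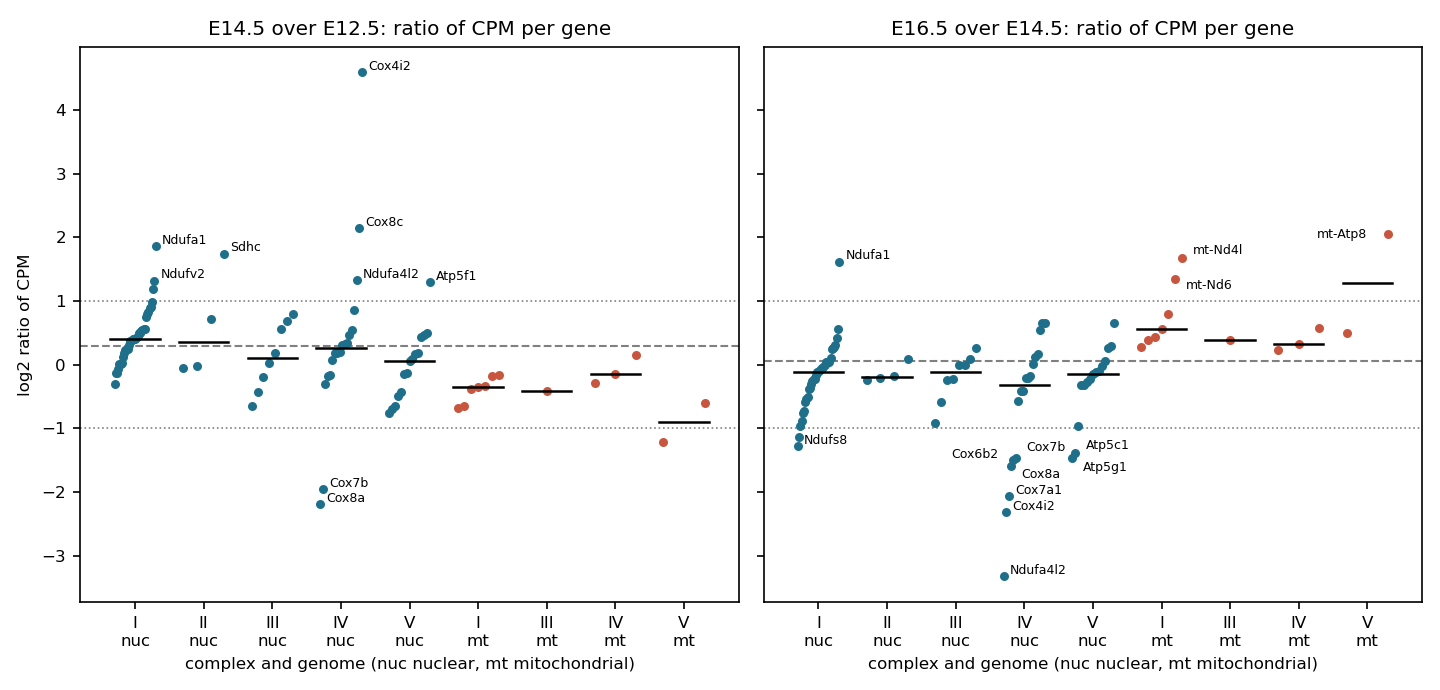
Log2 ratio of CPM for each respiratory chain gene (1 point per gene), grouped by complex and genome, in E14.5 over E12.5 (left) and E16.5 over E14.5 (right). Black bars are group medians, the dashed line is the median of all genes tested (0.30 and 0.06), and the dotted lines mark 2-fold. Most points lie between the dotted lines, and the mitochondrial genes lie mostly below 0 on the left and all above 0 on the right.

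Complex I takes electrons from NADH and is the largest of the complexes. Its 35 nuclear genes together held 1.26% of UMIs at E12.5, 1.76% at E14.5 and 1.72% at E16.5. The sum at E14.5 was 1.4 times that at E12.5 (1.12 and 1.16 times under median-of-ratios and TMM scaling). The 7 genes of the core that carries the electrons from NADH to quinone were summed apart, and they held 0.222% at E14.5 against 0.145% at E12.5, a ratio of 1.53. In E14.5 over E12.5, 3 of the 35 rose (8.57%, against 31.2% of all genes) and none fell (16.3% of all genes). The median log2 ratio was 0.41 (0.30 for all genes). In E16.5 over E14.5, 1 rose (2.86%, against 16.3%) and 2 fell (5.71%, against 17.3%). The median was -0.12 (0.06 for all genes).

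Ndufa1, an X-linked accessory subunit needed to assemble the membrane arm of complex I (X:37187588-37191163), had the highest ratio in each comparison among the nuclear genes of complex I. It had 217.6 CPM at E12.5, 790.7 CPM at E14.5 and 2430.1 CPM at E16.5, with 27239, 81056 and 167629 UMIs. It rose 3.63-fold at E14.5 over E12.5 and 3.07-fold at E16.5 over E14.5, and was 11.2-fold higher at E16.5 than at E12.5. The pregranulosa-like cells of the same libraries had 206.7 CPM (95% interval 164.4 to 256.6) at E12.5, 283.7 (258.0 to 311.3) at E14.5 and 607.0 (521.3 to 702.7) at E16.5. At E12.5 the intervals of both cell groups overlapped, and at the other stages the germ-cell-like cells lay above. The pregranulosa-like cluster also showed germ cell markers, so these may not be gaps between pure cell types. The X-linked subunit Ndufb11 stayed within 2-fold, with 362.6, 510.7 and 523.5 CPM. The E12.5 levels of these X-linked genes include the cluster with Y-linked genes, where they were lower than in the main E12.5 cluster. Ndufb11 had 236.8 against 384.3 CPM, Ndufa1 170.3 against 226.1 CPM, and X-linked Cox7b of complex IV was 1.30-fold lower. These were the widest gaps between both clusters among named genes of at least 10 CPM. Their E12.5 levels and ratios over E12.5 thus blend both clusters.

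Of the core subunits, Ndufv2, an iron-sulfur subunit of the NADH-binding module, had 209.3 CPM at E12.5, 523.0 CPM at E14.5 and 647.6 CPM at E16.5. It rose 2.50-fold at E14.5 over E12.5. Ndufs1, the large iron-sulfur subunit of the same module, had 61.3, 139.7 and 131.7 CPM and rose 2.28-fold in that step. Ndufs8, an iron-sulfur subunit near the quinone site, went the other way, with 123.3, 144.2 and 59.6 CPM, and fell 2.42-fold at E16.5 below E14.5. Among accessory subunits, Ndufa13 (700.4, 666.3 and 303.7 CPM) fell 2.19-fold at E16.5 below E14.5, and Ndufb6 (381.3, 708.2 and 857.2 CPM) was 2.25-fold higher at E16.5 than at E12.5. Ndufa13 overlaps Yjefn3 on the same strand in the annotation. The accessory subunit Ndufb3 had the smallest ratio among the nuclear genes of complex I in E14.5 over E12.5 and stayed within 2-fold, with 256.0, 208.3 and 224.2 CPM.

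Complex II, succinate dehydrogenase, also works in the tricarboxylic acid cycle. Its 4 genes held 0.0935% of UMIs at E14.5 against 0.0619% at E12.5. Sdhc, 1 of the 2 membrane anchors, had 66.5 CPM at E12.5, 223.0 CPM at E14.5 and 188.6 CPM at E16.5, and rose 3.35-fold at E14.5 over E12.5. The other anchor Sdhd, the flavoprotein Sdha and the iron-sulfur subunit Sdhb stayed within 2-fold, with Sdhd at 112.4, 108.4 and 93.5 CPM and Sdhb at 257.3, 423.3 and 451.0 CPM.

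Complex III hands electrons from quinol to cytochrome c. None of its 8 nuclear genes was called in E14.5 over E12.5 or in E16.5 over E14.5. Of all genes, 31.2% rose and 16.3% fell in the first of these, and 16.3% and 17.3% in the second. Uqcrb, a small subunit next to the quinone site, had 1101.5, 966.6 and 511.1 CPM and was 2.16-fold lower at E16.5 than at E12.5. The hinge protein Uqcrh had 626.2, 1086.4 and 1085.5 CPM, the core protein Uqcrc2 195.1, 313.3 and 376.8 CPM, and the Rieske iron-sulfur protein Uqcrfs1 270.8, 172.4 and 171.2 CPM, all within 2-fold in each comparison.

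Complex IV, cytochrome c oxidase, passes the electrons to oxygen. Its core is made in mitochondria and its outer subunits in the nucleus, several of them in alternative forms. The summed share of its 18 nuclear genes was 1.5% at E12.5, 1.66% at E14.5 and 1.57% at E16.5, a ratio of 1.11 in E14.5 over E12.5 that was 0.882 and 0.918 under median-of-ratios and TMM scaling. In E14.5 over E12.5, 3 of the 18 rose (16.7%, against 31.2% of all genes) and 2 fell (11.1%, against 16.3%). In E16.5 over E14.5, none rose (16.3% of all genes) and 6 fell (33.3%, against 17.3%). Cox4i2 and Ndufa4l2, which stayed under 10 CPM, were among those that rose in the first step and fell in the second.

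Cox8a, the general form of the smallest subunit (19:7215153-7217616), had 1064.7 CPM at E12.5, 234.6 CPM at E14.5 and 78.2 CPM at E16.5. It fell 4.54-fold at E14.5 below E12.5 and 3.0-fold at E16.5 below E14.5. It was found in 100%, 67.5% and 53.5% of germ-cell-like cells. In the pregranulosa-like cells of the same libraries it had 1000.8 CPM (904.8 to 1104.3), 748.8 CPM (706.6 to 792.8) and 708.7 CPM (615.9 to 811.6), so the germ-cell-like cells lay below them at the last 2 stages. Cox8c, a form known from testis, had 4.27, 18.8 and 29.7 CPM and rose 4.40-fold at E14.5 over E12.5. Of the UMIs of Cox8a and Cox8c together, Cox8c held 0.400% at E12.5, 7.43% at E14.5 and 27.6% at E16.5, while the sum of both fell to 107.9 CPM at E16.5, against 1069.0 CPM at E12.5. Cox8c was found in 10.2%, 18.4% and 30.7% of germ-cell-like cells, against 0%, 3.61% and 18.2% of 25, 166 and 22 pregranulosa-like cells. With median depths of 26710.5, 11002 and 12632 against 13397, 8491.5 and 12462 UMIs, the E16.5 shares in both cell types had overlapping 95% intervals (29.4 to 31.9% and 5.19 to 40.3%).

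Cox7b, an X-linked subunit (X:106015700-106022450), was also lower at each later stage. Cox7b had 627.2 CPM at E12.5, 162.0 CPM at E14.5 and 59.0 CPM at E16.5, and fell 3.87-fold and 2.75-fold in the 2 steps. Pregranulosa-like cells had 405.9 CPM (345.6 to 473.6), 252.6 CPM (228.3 to 278.7) and 159.4 CPM (117.1 to 211.9). The germ-cell-like cells lay above them at E12.5 and below them at E14.5 and E16.5. Its relative Cox7b2, a form also known from testis, stayed within 2-fold at 12.2, 13.8 and 20.1 CPM. Its share of the UMIs of this pair was 1.90%, 7.85% and 25.4%.

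The Cox7a subunit has a form of heart and muscle (Cox7a1), a general form (Cox7a2) and a related gene, Cox7a2l. Cox7a2l had 313.2 CPM at E12.5, 566.0 CPM at E14.5 and 892.3 CPM at E16.5 and was 2.85-fold higher at E16.5 than at E12.5. Its share of the group's UMIs was 16.8%, 28.6% and 40.3%. Cox7a1 had 110.8, 127.2 and 30.5 CPM and fell 4.17-fold at E16.5 below E14.5, while Cox7a2 stayed at 1443.2, 1288.4 and 1291.5 CPM. Cox6b2, the testis form of Cox6b, had 179.4, 188.1 and 66.7 CPM and fell 2.82-fold at E16.5 below E14.5. Its share beside the general form Cox6b1 (690.4, 557.3 and 374.9 CPM) was 20.6%, 25.2% and 15.1%.

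Other alternative forms were rare. Cox4i2, a form known from lung, had 12, 237 and 32 UMIs (0.096, 2.31 and 0.46 CPM), and Ndufa4l2, a gene known to respond to low oxygen, had 145, 298 and 20 UMIs (1.16, 2.91 and 0.29 CPM). Both are counted among the calls but stayed under 10 CPM. At E14.5 they were found in 2.58% and 3.02% of germ-cell-like cells, against 4.22% (1.71 to 8.50%) and 0.60% (0.015 to 3.31%) of pregranulosa-like cells, so the share of Cox4i2 was at the level of these cells. The general forms Cox4i1 (1791.4, 2268.6 and 1698.4 CPM), Ndufa4 (953.2, 1087.0 and 937.5 CPM) and Cox6a1 (907.2, 798.4 and 598.5 CPM) stayed within 2-fold.

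**Figure D2:**
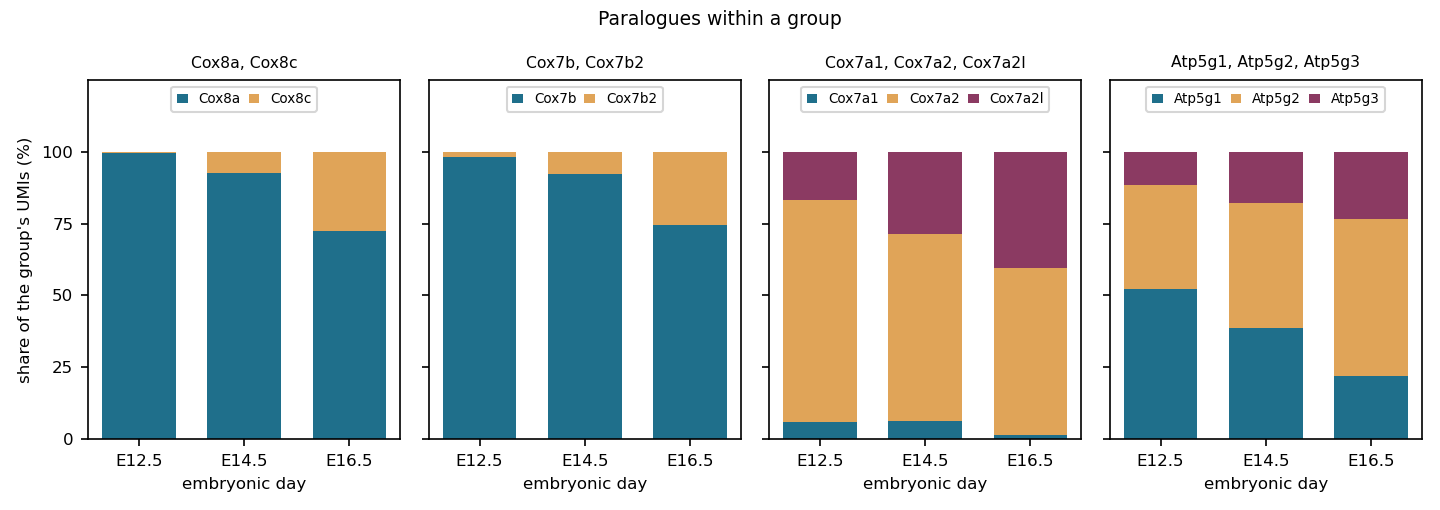
Share of the UMIs of each group of related genes (percent, stacked to 100) at E12.5, E14.5 and E16.5 in germ-cell-like cells. Cox8c, Cox7b2 and Cox7a2l held growing shares, up to 27.6%, 25.4% and 40.3% at E16.5, and Atp5g1 held 21.9% at E16.5 against 52.2% at E12.5.

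ATP synthase has a catalytic head (F1), a ring of c subunits in the membrane and a peripheral stalk that holds the head still. Its 15 nuclear genes held 1.26%, 1.23% and 1.11% of UMIs. The 5 genes of the head held 0.447%, 0.362% and 0.299%, and the 3 genes of the c subunit 0.335%, 0.290% and 0.184%. The 4 genes of the peripheral stalk held 0.224%, 0.309% and 0.386%. The ratio of E16.5 over E12.5 was 0.668 for the head, 0.548 for the c subunit and 1.72 for the stalk, and these directions held under median-of-ratios (0.515, 0.422 and 1.33) and TMM scaling (0.530, 0.435 and 1.37). Genes of the same part differed among themselves, and each sum followed its 1 or 2 called genes. In E16.5 over E12.5 the log2 ratios ran from -1.88 to 0.76 in the head, from -2.12 to 0.16 among the c subunit genes and from -0.45 to 1.95 in the stalk.

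Atp5f1, subunit b of the stalk (3:105942698-105960099), had 549.3 CPM at E12.5, 1347.6 CPM at E14.5 and 2123.3 CPM at E16.5. It rose 2.45-fold at E14.5 over E12.5 and was 3.87-fold higher at E16.5 than at E12.5. Wdr77 and Gm42890 overlap it on the other strand. The other stalk genes stayed within 2-fold in each comparison, with Atp5h at 471.2, 535.5 and 642.1 CPM, Atp5j at 631.4, 669.7 and 660.5 CPM, and Atp5o, which was lower at each later stage, at 586.9, 534.6 and 430.4 CPM. In the head, the catalytic beta subunit Atp5b had 2029.1, 1199.5 and 614.8 CPM and was 3.30-fold lower at E16.5 than at E12.5. The central gamma subunit Atp5c1 had 663.9, 473.0 and 180.4 CPM and fell 2.62-fold at E16.5 below E14.5. The alpha subunit, which pairs with beta, stayed within 2-fold. So did the small head subunits delta (Atp5d, 440.2, 495.4 and 464.2 CPM) and epsilon (Atp5e, 829.1, 1141.1 and 1402.3 CPM), and Atp5e was higher at each later stage. Atp5h, Atp5j, Atp5o, Atp5d and Atp5e were named after their values had been seen, to show all courses in a part.

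The c subunit is made from 3 genes that encode the same mature protein. Atp5g1 had 1750.2 CPM at E12.5, 1116.2 CPM at E14.5 and 402.9 CPM at E16.5 and fell 2.77-fold at E16.5 below E14.5. Atp5g2 (1217.9, 1262.2 and 1006.2 CPM) and Atp5g3 (384.0, 517.8 and 429.0 CPM) stayed within 2-fold. Of their joint UMIs, Atp5g1 held 52.2%, 38.5% and 21.9%, Atp5g2 36.3%, 43.6% and 54.7%, and Atp5g3 11.5%, 17.9% and 23.3%. Atp5sl, which is no subunit, had 51.1, 22.9 and 28.3 CPM and fell 2.23-fold at E14.5 below E12.5. How reads that match several related genes were counted is not given in the sources used here.

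**Figure D3:**
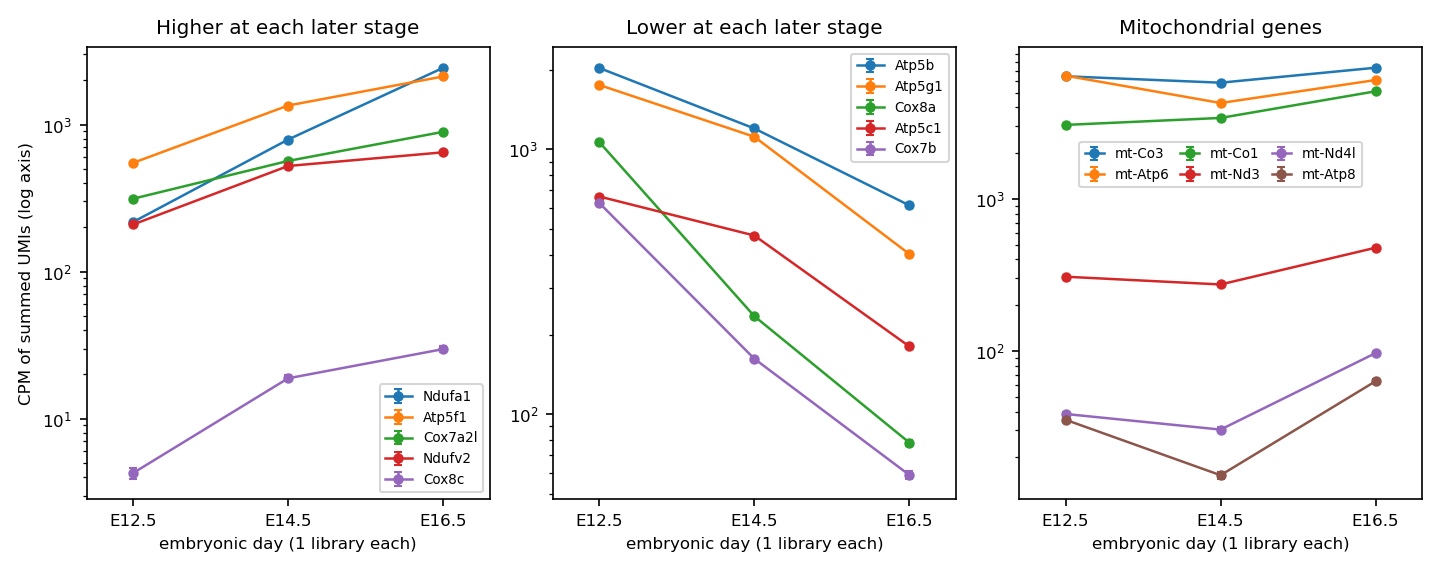
CPM of summed UMIs (log axis) in germ-cell-like cells of each library, for nuclear genes higher (left) or lower (middle) at each later stage and for mitochondrial genes (right). Bars are exact Poisson 95% intervals, mostly smaller than the points, and each point is 1 library. Ndufa1 lies at 217.6, 790.7 and 2430.1 CPM, and Cox8a at 1064.7, 234.6 and 78.2 CPM.

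The mitochondrial genes were lowest at E14.5 in their sum. In E14.5 over E12.5 the sum of the 13 was 0.816 times as high, and 12 of the 13 stayed within 2-fold (92.3%, against 52.5% of all genes). The median log2 ratio was -0.35 (0.30 for all genes). In E16.5 over E14.5 the sum was 1.33 times as high, and all 13 were higher by a log2 ratio of 0.24 to 2.05. Of them, 3 rose (23.1%, against 16.3% of all genes). E16.5 over E12.5 gave 1.08, which was 0.834 and 0.859 under median-of-ratios and TMM scaling. The ratios of the other comparisons kept their direction under both scalings.

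Genes of complex IV and of ATP synthase held most mitochondrial UMIs. The core subunit mt-Co1 had 3071.5 CPM at E12.5, 3413.1 CPM at E14.5 and 5107.9 CPM at E16.5. Its log2 ratio in E14.5 over E12.5 was 0.15, but -0.18 and -0.12 under median-of-ratios and TMM scaling. The core subunits mt-Co2 (4244.2, 3494.9 and 4118.9 CPM) and mt-Co3 (6413.9, 5821.2 and 7301.8 CPM) were lowest at E14.5. The proton channel subunit mt-Atp6 had 6475.8, 4279.1 and 6059.2 CPM, and mt-Cytb, the quinone-binding subunit of complex III, had 3016.1, 2264.3 and 2971.5 CPM. Of the membrane subunits of complex I, mt-Nd1 had 2617.9, 2017.8 and 2450.4 CPM, mt-Nd2 900.8, 572.9 and 747.3 CPM, and mt-Nd4 1356.5, 1064.3 and 1437.3 CPM. Lower counts were found for mt-Nd3 (308.2, 274.0 and 477.8 CPM) and mt-Nd5 (79.2, 70.1 and 103.6 CPM).

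The 3 mitochondrial genes called in E16.5 over E14.5 were also those with the fewest UMIs. They were mt-Atp8 (35.3, 15.2 and 63.2 CPM), which fell 2.32-fold at E14.5 below E12.5 and rose 4.15-fold at E16.5 over E14.5, mt-Nd4l (38.5, 30.4 and 96.9 CPM), which rose 3.18-fold in the second step, and mt-Nd6 (2.72, 1.70 and 4.34 CPM), which rose 2.55-fold in it. mt-Atp8 shares 43 of its 204 bases with mt-Atp6, mt-Nd4l shares 7 bases with mt-Nd4, and mt-Nd6 lies on the other strand beside mt-Nd5. The capture reads 3′ ends at poly(A) tails, so how UMIs were divided within an overlapping pair cannot be told from the table. The ratios of mt-Atp8 and mt-Nd4l may thus not be those of a message of their own. This limit does not cover mt-Nd6, which stayed under 10 CPM at each stage.

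Clusters that held cells of 2 libraries let the stages be compared within a cluster. In 4 germ-cell-like clusters the E16.5 library had 302 cells beside 8841 cells of the E14.5 library, and 5 of the 302 carried a barcode also present at E14.5. Of the 33 named nuclear genes with enough UMIs, 9 differed at least 2-fold between all E16.5 and all E14.5 cells, and all 9 lay within 2-fold between the libraries in each of the 4 clusters. Ndufa1 had a log2 ratio of 1.62 over all cells and -0.16 to 0.11 within clusters, and Cox8a -1.59 over all cells and -0.45 to 0.12 within clusters. The clusters were formed on these same counts, with 16 of the 95 genes among the variable genes used, so this likeness is partly built in. Of the 9 genes, 4 were not among them, and Atp5c1, 1 of these, had -1.39 over all cells and -0.30 to -0.03 within clusters. The pregranulosa-like cells, 22 at E16.5 and 166 at E14.5, had 1.10 for Ndufa1 and -1.22 for Ndufs8, the latter from 20 UMIs at E16.5. The others of the 9 genes stayed within 2-fold there. In all, 32 of the 33 nuclear genes lay within 2-fold in each of the 4 germ-cell-like clusters, with 3 higher and 14 lower at E16.5 in all 4. The share over all genes was not computed within clusters. Neither these counts nor those of mitochondrial genes thus have a background to be read against. Of 11 mitochondrial genes with enough UMIs, 9 lay within 2-fold in every cluster, with 6 higher and 0 lower in all 4, among them mt-Co1 at 0.35 to 0.82 (0.58 over all cells) and mt-Atp8 at 0.98 to 1.68 (2.05 over all cells). The pregranulosa-like cells also had more mt-Atp8 at E16.5, 84.8 CPM (54.9 to 125.1), against 19.1 CPM (12.9 to 27.2) at E14.5. This difference thus stood in all cell groups of the 2 libraries that were compared, though the pregranulosa-like cells may hold germ cell RNA. The part of the library in this difference was not tested.

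**Figure D4:**
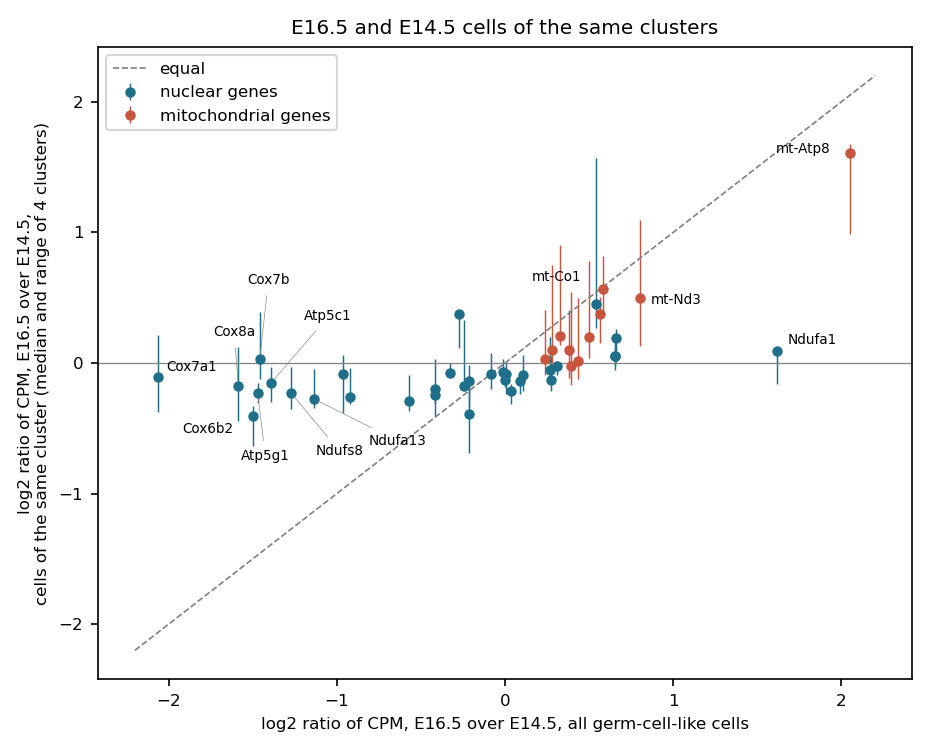
Log2 ratio of E16.5 over E14.5 for each named gene over all germ-cell-like cells (horizontal axis) and between cells of the same cluster (vertical axis, median and range of 4 clusters). Nuclear genes with large ratios over all cells, such as Ndufa1 (1.62) and Cox8a (-1.59), lie near 0 on the vertical axis, and mt-Atp8 (2.05) lies near the line of equal ratios.

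Cells of 1 stage also differed among themselves. The E14.5 library had 3 large germ-cell-like clusters, of 3298, 2245 and 3098 cells. Cluster 4 was led by Gm1141, Cdh15 and Dlx3, cluster 5 by Matk, Msx1 and the meiotic entry genes Stra8 and Rec8, and cluster 6 by Tppp, Fgf11 and Lypd4. Over clusters 4, 5 and 6, Ndufa1 had 388.0, 730.6 and 1397.9 CPM, Cox8a 412.4, 131.7 and 64.0 CPM, and Cox7b 306.6, 68.7 and 31.4 CPM. The lowest and highest of these were thus 3.6-fold, 6.44-fold and 9.78-fold apart within 1 library. Atp5c1, which was not used to form the clusters, had 617.4, 473.6 and 272.9 CPM, a 2.26-fold span. Of 34 named nuclear genes of at least 10 CPM, 8 spanned at least 2-fold over these 3 clusters. This held for 4 of 34 over the 2 large clusters of E16.5 and none of 33 over the 2 of E12.5. At E12.5, 1 of the 2 was the cluster with Y-linked genes. Many named genes were chosen for differences between stages, and the share over all genes was not computed. With unlike numbers of clusters as well, these counts do not compare the stages. The sum of nuclear genes differed little, with 50391, 53217 and 55872 CPM in clusters 4, 5 and 6, and the mitochondrial sum was 22859, 21112 and 26681 CPM. In the E16.5 library Cox7a1 had 45.1 CPM in cluster 7 and 11.3 CPM in cluster 8, Cox7b 27.7 and 70.0 CPM, and Cox8a 42.0 and 87.7 CPM. These values describe clusters that the same genes helped to form and carry no test.

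Small clusters with few mitochondrial UMIs were found at each stage. At E12.5, 69 cells led by Pdzk1, Irgm1 and Ehhadh had 2412 CPM from mitochondrial genes and 38067 CPM from nuclear ones, against 28820 and 45462 CPM in the main E12.5 cluster. A cluster led by Gm26699 and Abhd18 held 78 E16.5 and 200 E14.5 cells, with 9893 and 5976 CPM from mitochondrial genes. The median depth was 10484 and 7077 UMIs per cell in these clusters. Without both, the mitochondrial sum had ratios of 1.32 in E16.5 over E14.5 and 0.820 in E14.5 over E12.5.

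Within a stage the mitochondrial share varied more from cell to cell than the nuclear one. With each cell thinned to 5000 UMIs, which left out 0, 11 and 25 cells, the nuclear genes held a median of 4.52%, 5.28% and 4.94% of a cell's UMIs, with SDs over cells of 0.479, 0.608 and 0.531 percentage points. Counting alone would give 0.294, 0.317 and 0.307. The mitochondrial share had medians of 2.84%, 2.34% and 3.10% and SDs of 0.705, 0.715 and 0.812, against 0.236, 0.215 and 0.246 from counting alone. Without thinning the medians were 4.52%, 5.27% and 4.93% for nuclear and 2.84%, 2.35% and 3.11% for mitochondrial genes. Over cells of a stage, both shares had a Pearson correlation of 0.20 (n = 4678), 0.21 (n = 8892) and 0.12 (n = 5287), where the points share a library and both shares are parts of the same total. Within single large clusters it ran from -0.0085 in cluster 5 at E14.5 to 0.22 in cluster 7 at E16.5.

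No germ-cell-like cell reached 5% mitochondrial UMIs, so the table looks filtered. Shares over 4.5% were found in 1.18% of germ-cell-like cells at E12.5 (0.89 to 1.53%), 0.51% at E14.5 (0.37 to 0.68%) and 4.5% at E16.5 (3.96 to 5.09%). The part of such a limit in the mitochondrial levels, which would bear most on E16.5, was not tested.

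**Figure D5:**
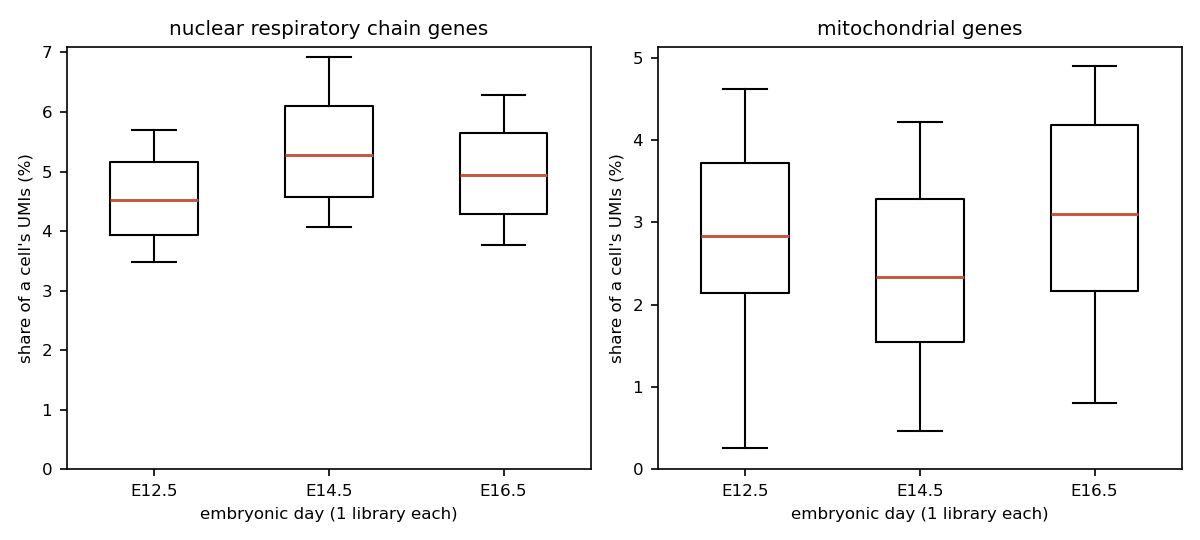
Share of a cell's UMIs (percent) from nuclear respiratory chain genes (left) and mitochondrial genes (right) at each stage, in germ-cell-like cells thinned to 5000 UMIs. Lines are medians (4.52, 5.28 and 4.94% on the left, 2.84, 2.34 and 3.10% on the right), boxes span the 10th to 90th percentile of cells and whiskers the 1st to 99th.

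Other mitochondrial genes were followed as lists. Of 48 assembly factors, which build the complexes, 16 were at least 2-fold higher and 8 lower at E16.5 than at E12.5. These are 33.3% and 16.7% of the list, near or below the 37% and 22.7% of all genes, and the median log2 ratio was 0.48 (0.39 for all genes). Ecsit, a complex I assembly factor, had 16.5, 111.3 and 120.7 CPM and rose 6.74-fold at E14.5 over E12.5. Ndufaf3 (32.8, 9.39 and 2.90 CPM) and Ndufaf6 (74.2, 27.0 and 9.73 CPM), also of complex I assembly, fell in both steps. Of the 76 genes of the mitochondrial ribosome, 1, 1 and 3 were higher and 6, 5 and 10 lower in E14.5 over E12.5, E16.5 over E14.5 and E16.5 over E12.5. The shares were 1.32%, 1.32% and 3.95% higher (31.2%, 16.3% and 37% of all genes) and 7.89%, 6.58% and 13.2% lower (16.3%, 17.3% and 22.7% of all genes). Of 29 genes of mitochondrial DNA upkeep and expression, 1, 6 and 5 were higher and 5, 1 and 4 lower in the same comparisons. The shares were 3.45%, 20.7% and 17.2% higher and 17.2%, 3.45% and 13.8% lower, several of them near or below those of all genes. Tfb2m, a factor of mitochondrial transcription, had 8.88, 4.11 and 17.5 CPM and rose 4.26-fold at E16.5 over E14.5. The RNA-degrading enzyme Pnpt1 had 35.6, 8.96 and 8.90 CPM and fell 3.98-fold at E14.5 below E12.5. The initiation factor Mtif3 had 7.65, 22.5 and 33.6 CPM and rose 2.95-fold in that step.

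Of 32 genes of import, pores and shape, 10 fell and 2 rose in E14.5 over E12.5, or 31.3% and 6.25% against 16.3% and 31.2% of all genes. Slc25a5, a carrier that exchanges ADP for ATP, had 1036.6, 180.2 and 35.4 CPM and was 29.3-fold lower at E16.5 than at E12.5. The import pore Tomm40 had 224.9, 36 and 37.0 CPM, and the fusion factor Mfn1 rose, with 10.1, 42.6 and 82.9 CPM. Of 22 genes of the tricarboxylic acid cycle and its entry, 7 were lower and 2 higher at E16.5 than at E12.5, or 31.8% and 9.09% against 22.7% and 37% of all genes, among them Idh2 (93.7, 51.1 and 8.79 CPM) and Dld (35.5, 65.9 and 141.1 CPM). Glycolysis, which feeds the cycle, had 17 of 21 genes lower and 1 higher at E16.5 than at E12.5, or 81.0% and 4.76%, with a median log2 ratio of -3.48 (0.39 for all genes). Aldoa, of glycolysis, had 545.3, 163.3 and 26.6 CPM. Of 15 regulators of mitochondrial genes, 6 were lower and 1 higher in that comparison, or 40.0% and 6.67%, and Esrrb, an oestrogen-related receptor also known from pluripotent cells, had 24.4, 3.44 and 0.68 CPM. Of 14 further parts of the chain, such as cytochrome c and the electron transfer flavoproteins, 4 were lower and 1 higher, or 28.6% and 7.14%, the first near the 22.7% of all genes. Values were, for Etfb, 281.6, 101.0 and 31.0 CPM and, for its partner Etfa, 115.7, 193.9 and 233.4 CPM.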

How the data were processed

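Single-cell 3′ RNA-seq (10x Chromium v2) gave 1 library per stage. Reads had been processed with Cell Ranger 2.0.0 and FastQC on mm10 (GRCm38), per the submitters' processing notes. The authors deposited natural log values, ln(1 + UMIs × 10000 / cell total). All 68606039 non-zero values gave whole UMIs to within 0.01 (100% of values), and all sums use these recovered UMI counts. No column was left unmapped (0).

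Scrublet (6% expected) called 38 of 19144 cells doublets, which is too few to show that doublets were found, so doublets may remain. The called cells were left out. Cells were clustered with scanpy 1.11.5 (2000 variable genes, 30 components, 15 neighbours, Leiden resolution 0.5) under Python 3.11.15, and clusters were named by markers found in at least 10% of cells. UMIs of germ-cell-like cells were summed per stage and scaled to CPM. Their 95% intervals are exact Poisson ones, and those of shares exact binomial ones. A gene needed 10 UMIs over the stages, and in ratios a library with fewer than 3 UMIs of a gene was set to a floor of 3 counts. A call is a difference of at least 2-fold. The summing and ratio steps were checked on simulated counts.

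Named genes are those of at least 10 CPM called in a comparison, those of largest and smallest ratio in each complex and genome, all mitochondrial genes, alternative forms of a subunit and X-linked genes, and in other lists those of largest and smallest ratio. Genes outside this rule are given as examples. Members and lists were chosen with earlier results of these data known. Alternatives were other scalings, cells, depths, minimum levels and the deposited log values. A list of cytosolic ribosome genes was not used, because its pattern also took in kinases.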

Additional observations from a re-analysis of the deposited data

How the results depend on the processing

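No paired analysis was possible because each stage was 1 library, and no library could be left out. The 47 calls on named genes kept their direction in each alternative run. All 47 stayed past 2-fold except under median-of-ratios scaling (40), TMM scaling (43) and the difference of mean deposited ln values (17). The values below run in the order E14.5 over E12.5, E16.5 over E14.5 and E16.5 over E12.5. Median-of-ratios scaling gave nuclear medians (log2) of -0.051, -0.22 and -0.27 and mitochondrial ratios of 0.651, 1.28 and 0.834, with 4 genes higher and 7 lower in the first comparison and 18 lower in the last. TMM scaling gave medians of 0.0072, -0.24 and -0.23 and mitochondrial ratios of 0.677, 1.27 and 0.859. The difference of mean ln values gave medians of 0.086, -0.083 and 0.0038, mitochondrial ratios of 0.821, 1.33 and 1.09, and 2 higher and 2 lower, 1 higher and 1 lower, and 4 higher and 7 lower genes. The cause of these shifts was not tested. Mitochondrial ratios were 0.812, 1.34 and 1.09 with CPM over nuclear genes only, 0.826, 1.31 and 1.09 with the mean over cells, 0.826, 1.32 and 1.09 after thinning, 0.821 and 1.32 in the first 2 comparisons with all cells, 0.820 and 1.32 without the 2 clusters lowest in mitochondrial UMIs (chosen after seeing the data), and 0.815 and 1.08 in the first and last comparison without the Y-linked cluster. The first nuclear median was 0.31 with the mean over cells and 0.25 over genes of at least 10 CPM. Shares over E12.5, E14.5 and E16.5 were 4.52, 5.32 and 4.96% (nuclear) and 2.87, 2.37 and 3.12% (mitochondrial) after thinning. With all cells those of E14.5 were 5.25 and 2.34%. Without the Y-linked cluster those of E12.5 were 4.54 and 2.86%, with a median per cell of 2.86% for mitochondrial genes. Without thinning, medians per cell were 4.52, 5.27 and 4.93% (nuclear), and for mitochondrial genes 2.35% at E14.5 and 3.11% at E16.5.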
